A study of Mus musculus with 12 samples.

Results

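Among the 6 APC Min/+ mice of a proximal colon RNA-Seq series, 2 had a high level of Hoxb13, a homeobox gene of the hindgut end, and are called distal-like here. These 2 distal-like mice were selected on a measured value, Hoxb13 above 10 CPM (the count of a gene divided by the total count of the mouse and given per 1000000 counts), and they are M10_2 and M13_1, so 2 of the 12 mice of the series. The 4 proximal-like APC Min/+ mice, with Hoxb13 below 10 CPM, are M8_2, M18_2b, M2_A and M20_1. The mouse just inside the limit was M13_1 with 301 CPM of Hoxb13, and the mouse just outside it was M8_2 with 0.733 CPM. Because the groups were chosen by a gene of the same comparison and one of them holds only 2 mice, sizes and agreement between mice are given below and no test was made.

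The study sequenced colon RNA of 6 APC Min/+ and 6 WT mice to compare the genotypes before polyps form. All 12 were female, 6 weeks old and of strain C57BL/6, and the labels give proximal colonic mucosa as the tissue of every one, the distal-like mice included. APC Min/+ mice carry 1 truncated copy of Apc in the germ line and 1 normal copy, so every cell of the tissue is heterozygous, and the study describes this age as free of detectable neoplasia. The methods describe sections of both proximal and distal colon from each animal, separate cages for the genotypes and several shipments, but the labels tie no mouse to a shipment. No library labelled distal colon was analysed here, so a difference between mice and a difference in the stretch of colon that was sampled cannot be told apart in any result below.

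The colon is patterned along its length. Hox genes, which lie in 4 chromosomal clusters and encode homeodomain transcription factors, are expressed in an order along the gut that follows their order in the cluster, with the 13th paralogues marking the hindgut end. The proximal colon of the mouse is known for lipid, bile acid and xenobiotic handling and for thick folds, and the distal colon for sodium and water recovery, dense goblet cells and a squamous boundary at the anus.

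The total count on genes lay between 82498776 and 188625809 in the distal-like mice, between 81730206 and 197914821 in the proximal-like mice and between 50313805 and 117477400 in WT mice. At these depths 3 counts, the most that a count of 0 allows, came to between 0.0152 and 0.0596 CPM, and this covers counting error only. The mitochondrial share of counts was 4.35% to 4.92% in the distal-like mice, 5.34% to 8.46% in the proximal-like mice and 6.00% to 12.7% in WT mice. Its part in the differences below was not tested. Apc itself was counted at 196 and 215 CPM in the distal-like mice and at 163 to 212 CPM in the proximal-like mice, and counts per gene do not separate its alleles.

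The name distal-like rests on 8 regional markers, of which Hoxb13 divided the mice and the other 7 were chosen with earlier results of these data known, so their values are a description and no independent check of the name. Values of a gene are given below in the order M10_2 and M13_1 for the distal-like mice and M8_2, M18_2b, M2_A and M20_1 for the proximal-like mice. Hoxb13, on chromosome 11 from 96194316 to 96197447 (GRCm38, GENCODE M21), was counted at 397 and 301 CPM against 0.733, 0.247, 0 and 0.0245 CPM. Hoxa13 stood at 80.4 and 67.8 CPM against 0.960, 1.84, 2.13 and 2.15 CPM. Hoxd13 stood at 13.01 and 229 CPM against 0.5255, 0.350, 0.229 and 0.245 CPM. Hoxa13 and Hoxd13 did not overlap between the groups that Hoxb13 defined, and Hoxd13 also differed between the distal-like mice themselves.

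The other markers gave the same separation. Tgm3, a transglutaminase that cross-links proteins of cornified envelopes, stood at 2405 and 2265 CPM against 5.29, 1.71, 0.666 and 1.08 CPM. Atp12a, the catalytic subunit of the colonic proton-potassium pump, stood at 1047 and 1079 CPM against 7.65, 5.42, 1.43 and 4.91 CPM. Mptx1, a mucosal pentraxin, stood at 2832 and 2076 CPM against 12.6, 18.7, 15.9 and 11.6 CPM. B3gnt7, an enzyme that extends sugar chains with N-acetylglucosamine, stood at 930 and 744 CPM against 7.50, 10.1, 2.87 and 9.98 CPM. Hoxb6 ran the other way, with 1.65 and 3.49 CPM against 78.4, 81.1, 64.1 and 65.7 CPM. In WT mice, which the selection did not use, Tgm3 lay between 0.266 and 2.89 CPM, Mptx1 between 9.58 and 31.3 CPM and Hoxb6 between 50.3 and 114 CPM, each far from the distal-like values and overlapping those of the proximal-like mice. In bulk tissue such as this, fewer cells of a type and less RNA per cell cannot be told apart.

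**Figure D1:**
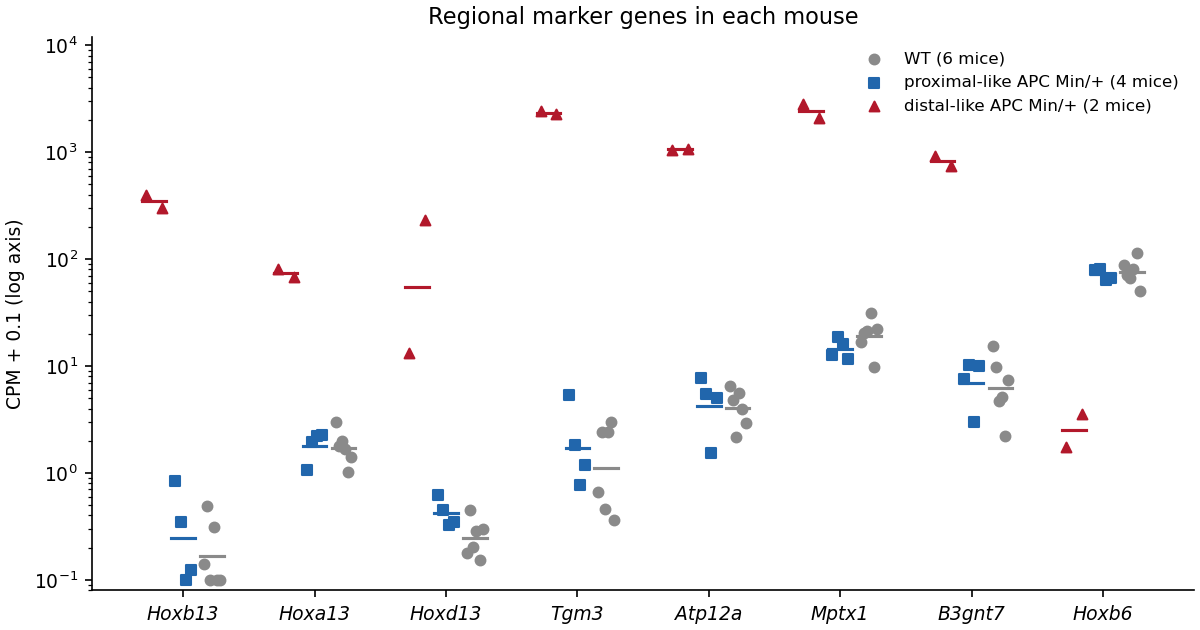
The 8 regional markers in each mouse, as CPM plus 0.1 on a log axis, with 1 point per mouse and a bar at the mean of the log values of each group. The 2 distal-like mice stand apart from the 4 proximal-like and 6 WT mice in every marker, below in Hoxb6 and above in the others, among them Hoxb13, which defined the groups.

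Across the transcriptome, 20417 genes were compared, those that reached 10 counts in 2 or more of the 6 APC Min/+ mice. The difference is the mean of log2(CPM + 0.1) in the distal-like mice minus that in the proximal-like mice. A gene is called higher or lower below where this difference was at least 1, a 2-fold change, and no distal-like mouse overlapped a proximal-like one. By this description 1149 genes (5.63%) were higher and 1007 genes (4.93%) were lower in the distal-like mice. The selection used this contrast, so these shares are a description of the 6 mice. The gap between the nearest mice of the groups reached 16-fold for 45 higher and 24 lower genes, and 32-fold for 24 higher genes and 1 lower gene. The median difference over all compared genes was 0.13, and 0.02 with edgeR's TMM library sizes, with which 970 genes were higher and 1161 lower. With 1 CPM in place of 0.1 CPM added before the logarithm, which mutes genes of low level, 706 were higher and 587 lower.

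The 2 distal-like libraries resembled each other about as closely as libraries within the other groups did. Over the compared genes, Pearson's r of the log2 values was 0.991 for the distal-like pair. It was 0.981 to 0.992 among the proximal-like mice and 0.968 to 0.993 among WT mice. Between distal-like and proximal-like mice it was 0.953 to 0.967, which ends just below the lowest WT pair. With WT mice, r lay between 0.943 and 0.967 for the distal-like and between 0.962 and 0.997 for the proximal-like mice. These are correlations across genes, which are not independent of each other.

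**Figure D2:**
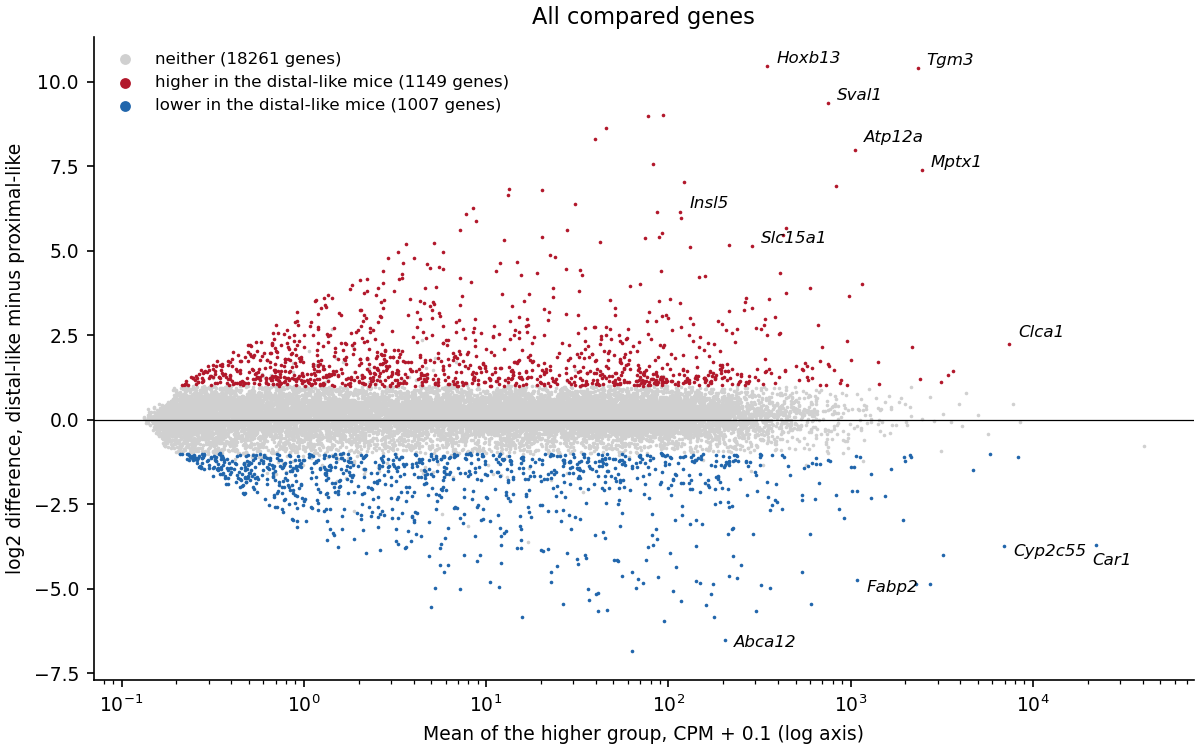
Each dot is 1 of the 20417 compared genes, with the mean of its higher group (CPM plus 0.1, log axis) on the horizontal axis and the log2 difference between distal-like and proximal-like APC Min/+ mice on the vertical axis. The 1149 higher and 1007 lower genes are coloured, and the highest differences, those of Hoxb13 and Tgm3, lie at 10.46 and 10.41.

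The 12 genes with the widest gap on the higher side held the regional markers Tgm3, Hoxb13, Atp12a and Mptx1 and 8 others. Sval1 headed them, at 733 and 767 CPM against 1.31, 1.24, 0.645 and 1.10 CPM, a log2 difference of 9.36 with a standard error of 0.21. Casp14, a protease of terminal keratinocyte differentiation, stood at 38.7 and 51.9 CPM against 0.0404, 0.0206, 0 and 0 CPM. Hottip, a long noncoding RNA at the 5′ end of the HoxA cluster, stood at 44.98 and 34.2 CPM and at no more than 0.0960 CPM in the proximal-like mice. Each of these was present in both distal-like mice at similar levels and nearly absent from the others.

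Ly6g, a surface protein of the Ly6 family best known from neutrophils, stood at 78.6 and 107 CPM against 0.465, 0.0412, 0 and 0.0245 CPM. S100a8 and S100a9, the abundant neutrophil transcripts, were at 0.0742 and 0.0727 CPM and at 0.0848 and 0.121 CPM in the same distal-like mice. Fxyd4, a regulator of sodium-potassium pumps in colon and kidney, stood at 46.0 and 108 CPM and was counted in only 1 proximal-like mouse, M8_2, at 0.293 CPM. Fut9, a fucosyltransferase that builds Lewis x structures, stood at 50.7 and 115 CPM against 0.354, 0.309, 0.291 and 0.269 CPM. Tmprss13, a membrane-bound serine protease, and Gm8540, annotated as a pseudogene, completed the set at 10.6 and 16.06 CPM and at 13.3 and 12.8 CPM, with all proximal-like values at most 0.0657 CPM.

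Of the 12 widest gaps on each side, 7 higher and 9 lower genes had an entry in the RefSeq promoter table (GRCm38.p6). In the 250 bases before the start site, the motif TTTATTG and its complement CAATAAA, the core of sites bound by caudal-type and posterior Hox proteins, were searched on both strands. Casp14, Hottip and Ly6g of the higher genes and H2-T3 of the lower genes held it, and the bases around it are shown for these 4 because they are the only genes of the 2 sets with this match. Capitals mark the match and the sequence is that of the gene's own strand, 5′ to 3′. The windows are chr10:78718294-78718354 on the minus strand for Casp14, chr6:52262525-52262597 on the plus strand for Hottip, chr15:75155166-75155260 on the plus strand for Ly6g and chr17:36190152-36190240 on the minus strand for H2-T3.
Casp14: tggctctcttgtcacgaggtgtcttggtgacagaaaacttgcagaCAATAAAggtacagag
Hottip: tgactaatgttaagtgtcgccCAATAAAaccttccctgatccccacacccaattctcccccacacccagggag
Ly6g: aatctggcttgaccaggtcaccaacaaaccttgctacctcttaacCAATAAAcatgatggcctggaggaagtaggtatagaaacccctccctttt
H2-T3: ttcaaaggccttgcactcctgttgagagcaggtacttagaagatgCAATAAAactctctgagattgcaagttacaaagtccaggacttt
The match began 16 bases before the start site in Casp14, 229 in Hottip, 50 in Ly6g (118 from a second RefSeq start of that gene) and 44 in H2-T3. Over all compared genes with a promoter entry, 424 of 13382 (3.17%) held the motif, against 50 of 791 (6.32%) of the higher genes and 27 of 714 (3.78%) of the lower genes. The longer motif CCAATAAA, which contains the same core, was held by 124 (0.927%), 12 (1.52%) and 4 (0.560%) of these promoters, and CTCGTAAA, a second Hoxb13 site, by 15 (0.112%), 1 (0.126%) and 1 (0.140%). A match is a run of letters and was not tested as a binding site.

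The 12 widest gaps on the lower side belonged to genes of absorption, lipid handling and detoxification and to a homeobox gene, and 10 of them are described here. Isx, an intestine-specific homeobox repressor of vitamin A uptake, stood at 8.65 and 8.33 CPM against 194, 218, 248 and 199 CPM. Slc26a1, a sulfate transporter, stood at 0.0742 and 0.291 CPM against 25.2, 9.46, 13.8 and 14.3 CPM. In WT mice Isx lay between 229 and 267 CPM, but 1 WT mouse, M17_1, had only 0.273 CPM of Slc26a1, down at the distal-like level.

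Ugt2b5, a glucuronosyltransferase, stood at 0.578 and 3.22 CPM against 75.4, 84.8, 117 and 102 CPM. Abca12, a lipid transporter, stood at 0.488 and 7.92 CPM against 272, 197, 177 and 175 CPM, and Sptssb, a subunit of the first enzyme of sphingolipid synthesis, at 1.74 and 6.61 CPM against 143 to 182 CPM. In Ugt2b5, Abca12 and Sptssb, M13_1 kept several times the level of M10_2 while both stayed far under every proximal-like mouse.

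H2-T3, a nonclassical MHC class I gene of gut epithelium, stood at 2.23 and 4.10 CPM against 109, 118, 98.9 and 99.7 CPM. Retnlb, the goblet cell product RELM-beta, stood at 2.16 and 3.08 CPM against 162, 66.3, 115 and 126 CPM, and Ces1g, a carboxylesterase, at 3.29 and 9.87 CPM against 207 to 368 CPM. Slc51a, a subunit of the basolateral bile acid exporter, stood at 1.06 and 8.27 CPM against 170 to 189 CPM, and Prap1, a secreted protein of absorptive epithelium, at 0.382 and 1.62 CPM against 34.3 to 55.4 CPM. For Retnlb the WT range of 13.04 to 155 CPM reached further down than that of the proximal-like mice.

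The Hox genes did not move together, neither between clusters nor, in HoxB and HoxD, within them. Of the 35 Hox genes compared, out of 39 listed, 12 were higher (34.3%) and 16 lower (45.7%) in the distal-like mice. Of all compared genes 5.63% were higher and 4.93% lower, and where a list below has shares in brackets, they stand beside these. The median difference of the Hox genes was -0.52, beside 0.13 for all compared genes. In HoxA, 9 of 11 genes were higher. Hoxa5 stood at 20.01 and 21.6 CPM against 3.49 to 3.61 CPM, Hoxa6 at 13.3 and 14.3 CPM against 1.05 to 1.81 CPM and Hoxa9 at 56.5 and 51.0 CPM against 7.76 to 10.8 CPM. The exceptions were Hoxa4, with a difference of 0.56, and Hoxa11, with 6.26 and 5.31 CPM against 5.71 to 6.23 CPM. Hoxa2 (1.07) was no longer 2-fold higher with TMM library sizes, at 0.95.

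HoxB ran in 2 directions. The 7 genes Hoxb2 to Hoxb8 were all lower, with log2 differences from -4.85 for Hoxb6 to -1.01 for Hoxb2, while that of Hoxb13 was 10.46. Hoxb7 stood at 0.652 and 1.18 CPM against 19.99 to 25.1 CPM, and Hoxb8 at 0.488 and 0.946 CPM against 16.4 to 28.3 CPM. Hoxb9, which lies between them and Hoxb13, stood at 60.4 and 53.5 CPM against 74.8 to 98.0 CPM, a difference of -0.52 without overlap.

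In HoxC nothing was higher. Hoxc5, Hoxc6, Hoxc8, Hoxc9, Hoxc10 and Hoxc11 were lower, and Hoxc9, Hoxc10 and Hoxc11 had no count in either distal-like mouse. Against the floor of 3 counts in a library, Hoxc10 was at least 16.2-fold and Hoxc11 at least 8.50-fold lower, but the cluster was weakly expressed throughout, with Hoxc6 the highest at 0.8286 to 2.16 CPM in the proximal-like mice.

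HoxD changed sign along the cluster. Hoxd3, Hoxd8 and Hoxd9 were lower, Hoxd3 at 3.40 and 3.76 CPM against 19.4 to 28.4 CPM, and Hoxd12 and Hoxd13 were higher. Between them, Hoxd10 and Hoxd11 set the distal-like mice apart from each other. Hoxd10 stood at 3.46 and 32.2 CPM against 10.8 to 15.3 CPM, and Hoxd11 at 5.08 and 50.1 CPM against 6.38 to 8.07 CPM. Hoxd12 likewise stood at 1.52 and 9.84 CPM against at most 0.0416 CPM. From Hoxd10 to Hoxd13, M13_1 exceeded M10_2 in all 4 genes.

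**Figure D3:**
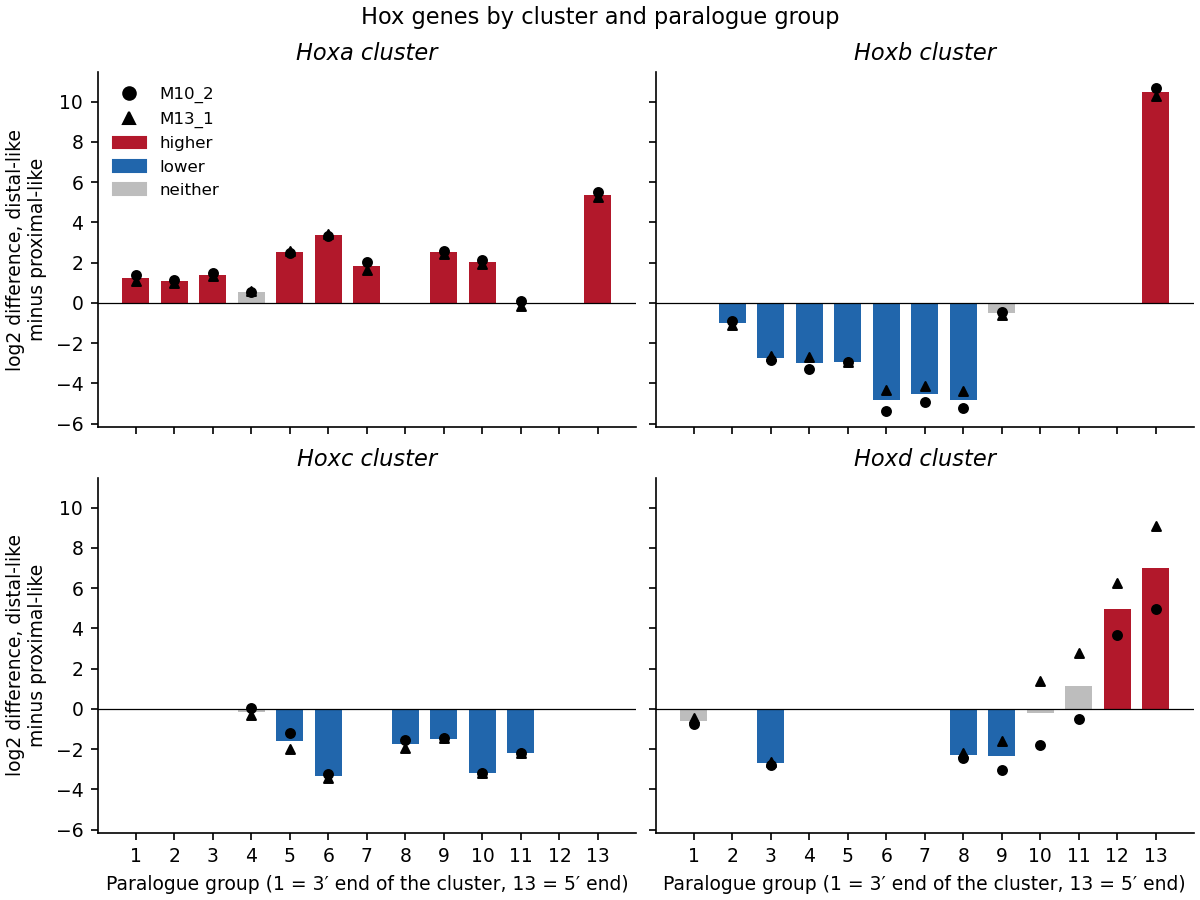
Log2 difference between distal-like and proximal-like APC Min/+ mice for each compared Hox gene, by cluster and paralogue group, with a bar for the mean and a point for each of the 2 distal-like mice against the mean of the 4 proximal-like mice. Bars reach 5.36 at Hoxa13, 10.46 at Hoxb13 and 7.02 at Hoxd13, Hoxb2 to Hoxb8 and Hoxc5 to Hoxc11 point down, and the 2 points lie farthest apart in Hoxd10 to Hoxd13.

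Set per kilobase of gene length, the order of Hox levels turned over. In the distal-like mice Hoxb13 led with a mean of 158 RPKM (CPM per kilobase of gene length), followed by Hoxd13 with 48.8, Hoxa13 with 30.0 and Hoxb9 with 22.1 RPKM. The place of Hoxd13 rests on M13_1, with 92.3 RPKM there against 5.24 RPKM in M10_2, where it came 9th and Hoxa13 followed Hoxb13 with 32.5 RPKM. In the proximal-like mice Hoxb6 led with 34.9 RPKM, followed by Hoxb9 with 31.8, Hoxb7 with 14.6 and Hoxb5 with 11.7 RPKM. WT mice kept that order, with 37.8, 35.9, 15.3 and 13.7 RPKM. Hoxb9 was thus the one gene among the 4 leading Hox genes of both groups.

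Noncoding and homeobox genes beside the clusters were also counted. Of 8 listed, 5 were higher (62.5%) and 1 lower (12.5%). Hoxa11os, antisense to Hoxa11, stood at 94.6 and 84.1 CPM against 1.71 to 2.25 CPM, although Hoxa11 itself was level. Evx1 and Evx2, homeobox genes beyond the 5′ ends of HoxA and HoxD, stood at 1.87 and 0.800 CPM and at 2.23 and 11.9 CPM and at no more than 0.0245 CPM in the proximal-like mice. Hotair, within HoxC, had no count in the distal-like mice and 0.0734 to 0.333 CPM in the others. The sources used here do not say whether reads were counted by strand, so a gene and its antisense partner cannot be told apart by their counts.

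Along the chromosomes, called genes lay beside each other. Of 1134 higher genes with a position, 347 (30.6%) had a higher gene as next compared neighbour, against 10.6% of all 20129 positioned genes, and of 999 lower genes 261 (26.1%) had a lower neighbour, against 9.40%. The longest run of higher genes held 8, on chromosome 6 from 52244393 to 52318378, from Hoxa11os to Evx1. The longest run of lower genes held 7, on chromosome 15 from 102944062 to 103017429, from Hotair to Hoxc6. Runs of 6 were found at the Cyp2c genes of chromosome 19 (lower), at the Reg genes of chromosome 6 (lower), at the Cyp2d genes of chromosome 15 (higher) and around Hoxb13 (higher). Members of such families are near copies and their reads may be shared, and some neighbours overlap.

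Among 25 compared transcription factors of gut epithelium, 2 were higher (8%) and 5 lower (20%), with a median difference of 0.19. The share of higher factors was thus near the 5.63% of all compared genes. Besides Isx, Cdx2, the caudal-type master regulator of intestinal identity, was lower at 52.4 and 22.7 CPM against 247, 228, 127 and 166 CPM. Its paralogue Cdx1 stood at 210 and 166 CPM against 80.5 to 182 CPM, overlapping. Spdef, a goblet cell factor, was lower at 34.5 and 23.4 CPM against 53.0 to 94.4 CPM, and Gata5 at 0.536 and 0.558 CPM against 0.957 to 3.08 CPM. Foxq1 and Foxa2, forkhead factors of mucous cells, were higher, at 12.3 and 14.6 CPM against 1.19 to 2.29 CPM and at 40.2 and 29.5 CPM against 5.67 to 11.5 CPM. Hnf4a, a nuclear receptor of gut epithelium, overlapped at 871 and 799 CPM against 515 to 949 CPM.

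Of 39 genes of colonic ion and water transport, 13 were higher (33.3%) and 4 lower (10.3%), with a median difference of 0.38. The 3 subunits of the epithelial sodium channel, the rate-limiting step of electrogenic sodium uptake, were all higher. Scnn1a stood at 262 and 203 CPM against 54.8, 65.5, 23.6 and 54.4 CPM, Scnn1b at 29.0 and 28.5 CPM against 7.10 to 9.20 CPM and Scnn1g at 15.6 and 31.7 CPM against 0.146 to 2.62 CPM. Hsd11b2, which protects the mineralocorticoid receptor from glucocorticoids, was higher at 396 and 282 CPM against 40.3 to 218 CPM, and the receptor itself, Nr3c2, stood at 215 and 223 CPM against 154 to 178 CPM, short of 2-fold.

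Anion and water channels differed gene by gene. Best2, a bicarbonate channel of colonic goblet cells, stood at 104 and 74.0 CPM against 4.59 to 9.76 CPM, and Ano1, a calcium-activated chloride channel, at 381 and 390 CPM against 36.5 to 59.6 CPM. Cftr, the cyclic AMP-driven chloride channel, stood at 207 and 199 CPM against 196 to 231 CPM. Aqp4 was higher, at 504 and 138 CPM against 32.5 to 49.3 CPM, and Aqp8 overlapped. Car1, a carbonic anhydrase and one of the most abundant transcripts here, was lower at 1014 and 2787 CPM against 21400, 15600, 27250 and 25120 CPM, whereas Car4, its membrane-bound relative, was higher at 970 and 1046 CPM against 257 to 337 CPM. Slc5a8, the sodium-coupled carrier of short-chain fatty acids, was higher at 557 and 569 CPM against 148 to 200 CPM. Clca4a was lower, at 207 and 270 CPM against 1265 to 2733 CPM, and the goblet cell product Clca1 higher, at 9376 and 5461 CPM against 1253 to 1693 CPM.

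Of 32 compared genes of mucus and glycosylation, 15 were higher (46.9%) and 7 lower (21.9%), and 12 and 7 with TMM library sizes, with a median of 0.59. Muc2, the gel-forming mucin of the colon, was lower at 1799 and 1392 CPM against 2788, 4417, 5041 and 6531 CPM. Zg16, a lectin of the mucus layer, was higher at 3924 and 2331 CPM against 1162 to 1627 CPM, and Muc1, a membrane mucin, at 28.9 and 25.6 CPM against 0.857 to 1.31 CPM. Goblet cell products were therefore found on both sides.

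Related glycosyltransferases also went opposite ways. B3gnt6, the core 3 synthase of intestinal mucins, was lower at 2.296 and 1.83 CPM against 27.8 to 40.7 CPM, while B3gnt5, which starts lacto-series glycolipids, was higher at 143 and 176 CPM against 6.86 to 9.60 CPM. Gcnt1, a core 2 enzyme, was higher at 114 and 159 CPM against 11.9 to 30.3 CPM and Gcnt3, its mucin-type relative, lower at 119 and 134 CPM against 627 to 674 CPM. The sialyltransferases St8sia5, at 8.22 and 8.57 CPM against at most 0.0505 CPM, and St3gal6, at 245 and 284 CPM against 13.97 to 33.8 CPM, were higher. A4gnt and B4galnt2, which cap chains with N-acetylglucosamine and N-acetylgalactosamine, were lower, at 7.74 and 10.6 CPM against 79.2 to 90.9 CPM and at 177 and 82.3 CPM against 732 to 1055 CPM.

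Of 25 compared antimicrobial and lectin genes, 10 were higher (40%) and 5 lower (20%), with a median of 0.48. The list was drawn broadly and also held Ly6g, a surface protein, so its counts are not of antimicrobial and lectin genes alone. Beside Sval1, Mptx1 and Ly6g, the higher ones included Mptx2, at 20.4 and 19.8 CPM against at most 0.165 CPM, and the acute phase genes Saa1, at 1062 and 902 CPM against 53.6 to 126 CPM, and Saa2, at 16.5 and 17.8 CPM against 0.780 to 2.16 CPM. Il18, an epithelial cytokine, stood at 138 and 134 CPM against 20.4 to 39.1 CPM, and Defb45, a beta-defensin, at 2.20 and 5.60 CPM against at most 0.0606 CPM. The bactericidal lectins went the other way. Reg3b stood at 1.38 and 12.1 CPM against 84.7 to 313 CPM and Reg3g at 0.191 and 2.35 CPM against 23.0 to 53.6 CPM. Saa1 with Saa2, Mptx1 with Mptx2 and the Reg3 genes are near copies, so the split of reads within each pair is uncertain.

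Of 13 compared gut hormone genes, 2 were higher (15.4%) and 7 lower (53.8%), with a median of -1.09. The higher ones were Insl5, a hormone of colonic L cells, at 150 and 82.9 CPM against 0.910, 1.77, 1.997 and 1.42 CPM, and Pyy, at 75.5 and 58.5 CPM against 12.04 to 23.2 CPM. Gcg, the proglucagon gene of the same cells, was lower at 39.7 and 22.5 CPM against 60.5 to 95.3 CPM. Nts, encoding neurotensin, stood at 0.392 and 2.59 CPM against 26.6 to 46.6 CPM and Sct, encoding secretin, at 1.52 and 2.55 CPM against 33.8 to 37.0 CPM. Cck, Tph1, Chgb and Iapp were also lower, with differences of -2.16, -1.46, -1.09 and -2.65.

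Of 20 compared genes of cornified and squamous envelopes, 10 were higher (50%) and 2 lower (10%), with a median of 1.07. Beside Tgm3 and Casp14, Anxa8 stood at 118 and 146 CPM against 2.12 to 4.89 CPM and Trpv3, a heat-gated channel of keratinocytes, at 63.8 and 119 CPM against 3.50 to 5.13 CPM. The connexin Gjb5 stood at 12.5 and 18.6 CPM against 0.391 to 1.08 CPM. Klk15, a kallikrein protease, had 2.08 and 4.28 CPM and no count in any proximal-like mouse, at least 56.8-fold higher. Sprr1a, a cornified envelope precursor, was lower at 0.880 and 2.11 CPM against 17.6 to 53.7 CPM.

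The defining markers of squamous epithelium stayed at or near 0 beside these genes. Krt5 stood at 0.0954 and 0.218 CPM and Trp63 at 0.0954 and 0.0485 CPM in the distal-like mice. Krt6a, Ivl and Sprr3 had no count in either, and Krt14 stood at 1.99 and 2.33 CPM against 1.02 to 1.94 CPM. Of the 15 markers of squamous and anal epithelium 11 could be compared, with 2, Dsc3 and Lor, higher and none lower, and neither was called without M13_1 or with 1 CPM added. Their summed level was 8.01 and 10.1 CPM in the distal-like mice, 5.30 to 6.88 CPM in the proximal-like mice and 5.01 to 6.67 CPM in WT mice, against 2405 and 2265 CPM for Tgm3 alone.

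Genes of small intestinal type absorption made up the list with the most lower members relative to its size after adipocyte markers. Of 20 compared, 13 were lower (65.0%) and 1 higher (5.0%), with a median of -2.57. Fabp2, a fatty acid binding protein, stood at 34.5 and 45.9 CPM against 960, 842, 1212 and 1329 CPM. Slc10a2, the apical bile acid transporter, stood at 3.001 and 11.3 CPM against 153 to 197 CPM, and Slc51b, partner of Slc51a in bile acid export, at 8.68 and 7.30 CPM against 44.8 to 67.5 CPM. Alpi, intestinal alkaline phosphatase, stood at 0.753 and 1.31 CPM against 25.6 to 42.9 CPM and Sis, sucrase-isomaltase, at 1.04 and 3.32 CPM against 19.6 to 84.3 CPM.

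The single higher gene of that list was Slc15a1, the intestinal peptide transporter. It stood at 264 and 310 CPM against 6.03, 18.6, 4.99 and 7.31 CPM in the proximal-like mice and 4.99 to 16.6 CPM in WT mice. One proximal-like mouse, M18_2b, exceeded the other three in ileal and Paneth cell transcripts, with 52.1 CPM of Fabp6 against 2.51 to 7.60 CPM and 12.1 CPM of Defa24 against 0.135 to 0.318 CPM. Without M18_2b the list held 12 lower and 2 higher genes.

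Of 30 genes of xenobiotic and lipid metabolism, 8 were higher (26.7%) and 18 lower (60.0%), with a median of -1.10. Cyp2c55 stood at 339 and 784 CPM against 6539, 5865, 9453 and 5994 CPM, Cyp2c65 at 6.95 and 26.2 CPM against 511 to 719 CPM and Cyp2c66 at 0.207 and 1.06 CPM against 22.3 to 28.0 CPM. Another member of the same cytochrome family, Cyp2c68, was higher at 130 and 164 CPM against 4.41 to 10.6 CPM. The carboxylesterases Ces1d, Ces1f and Ces1g, neighbours on chromosome 8, were all lower, and Ugt1a1, a glucuronosyltransferase of bilirubin, stood at 3.92 and 7.01 CPM against 101 to 127 CPM.

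On the higher side of that list stood Cyp2d12, at 80.8 and 104 CPM against 1.48 to 2.44 CPM, Cyp2f2, at 28.5 and 27.1 CPM against 0.283 to 1.06 CPM, and Adh1, an alcohol dehydrogenase, at 1167 and 1130 CPM against 49.0 to 96.4 CPM. The nucleoside carrier Slc28a3 stood at 18.8 and 21.6 CPM against 0.196 to 0.576 CPM, and the folate carrier Slc46a1 at 46.0 and 49.9 CPM against 3.31 to 4.43 CPM. Members of the Cyp2c family thus stood on both sides.

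Genes of the Wnt pathway and of cell division, which Apc bears on, are given here for their own values. Of 22 Wnt target and stem cell genes, 2 were higher and 2 lower, 9.09% each way beside 5.63% and 4.93% of all compared genes, with a median of 0.46. Lgr5, the stem cell marker, stood at 14.5 and 19.9 CPM against 11.3 to 19.9 CPM and Axin2, a feedback inhibitor of the pathway, at 32.0 and 26.7 CPM against 10.3 to 27.0 CPM. Ascl2 and Smoc2 were higher, by 1.20 and 1.06, and Smoc2 no longer 2-fold with TMM library sizes, at 0.94. Without M18_2b 5 genes of the list were higher, without M13_1 4, and without M2_A 1. Cd44 was lower at 45.03 and 43.0 CPM against 107 to 138 CPM. Of 20 proliferation genes 1 (5.0%), Rrm2, was lower and none higher, with a median of -0.30, and Mki67 stood at 166 and 179 CPM against 146 to 194 CPM.

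**Figure D4:**
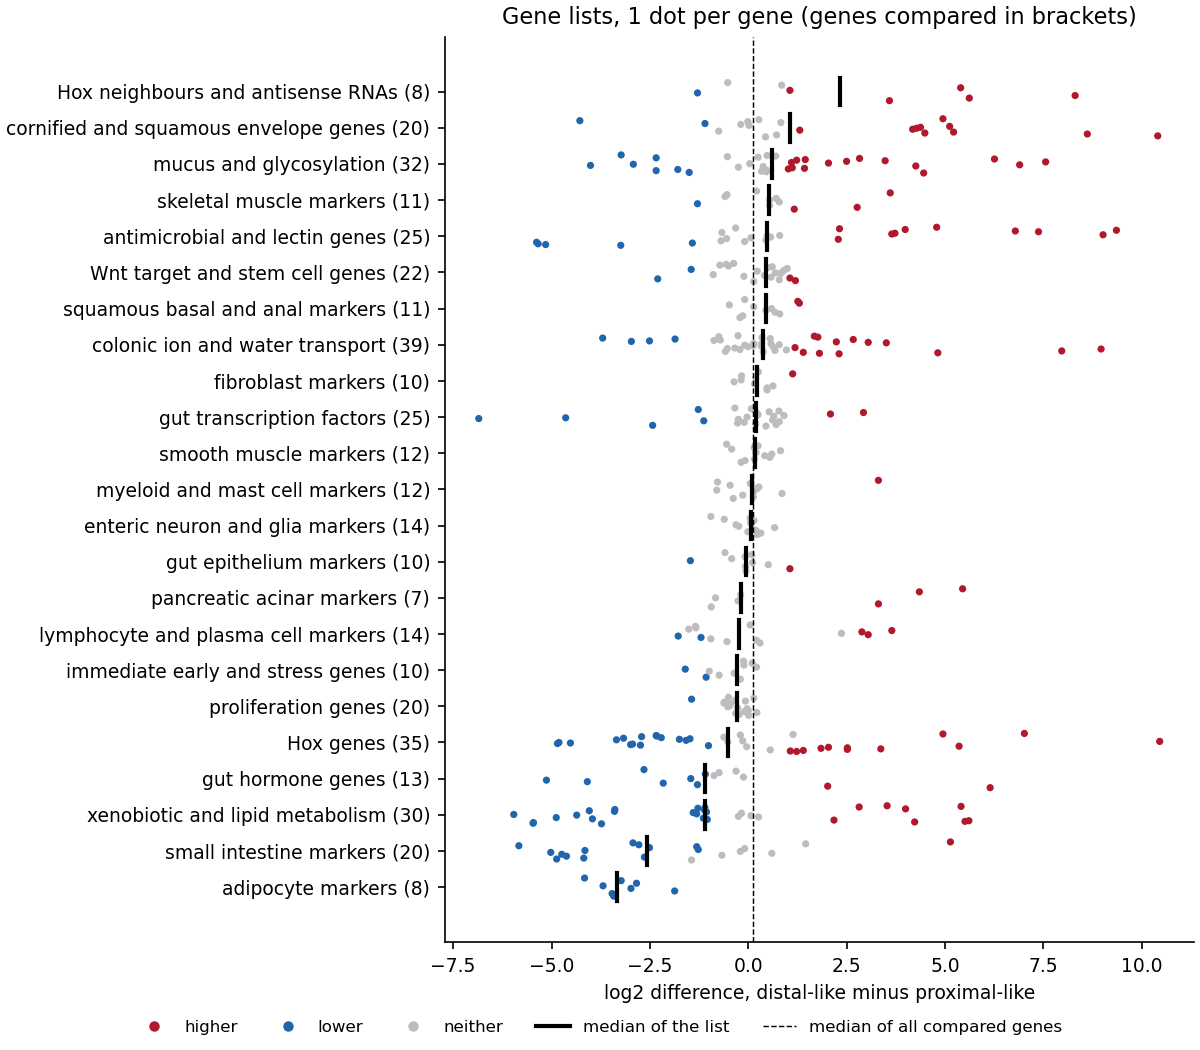
Log2 difference of each compared gene in 23 gene lists, with 1 dot per gene, a bar at the median of the list and a dashed line at 0.13, the median of all compared genes. Adipocyte, small intestine, hormone and metabolism lists have medians from -3.32 to -1.09, those of smooth muscle, nerve and fibroblast genes are 0.18, 0.07 and 0.22, and most lists hold dots on both sides.

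General epithelial content was similar. Epcam stood at 1430 and 1410 CPM against 1431 to 1529 CPM and Krt8 at 3500 and 3225 CPM against 3235 to 3759 CPM. Of 10 epithelial markers Cdh1 was higher, by 1.06 and by 0.94 with TMM library sizes, and Krt20, a marker of surface cells, lower at 618 and 586 CPM against 1405 to 1896 CPM. Of 12 smooth muscle and 14 enteric neuron and glia markers none was called in either direction, with medians of 0.18 and 0.07, the second turning to -0.055 with TMM library sizes. Of 10 fibroblast markers 1, Grem1, a stromal BMP antagonist, was higher at 70.8 and 74.7 CPM against 30.3 to 37.1 CPM.

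Fat cell transcripts were the list that moved most uniformly. All 8 adipocyte markers were lower, with a median of -3.32. Adipoq, encoding adiponectin, stood at 1.45 and 3.71 CPM against 6.43, 32.9, 97.8 and 21.6 CPM, and Cidec, a lipid droplet protein, at 1.80 and 3.52 CPM against 35.9, 43.7, 87.0 and 34.6 CPM. Their summed level was 36.4 and 84.3 CPM in the distal-like mice, 145 to 1368 CPM in the proximal-like mice and 115 to 754 CPM in WT mice. All 8 were lower also when any 1 of the 6 mice was left out, but this could hardly fail, since leaving out a mouse cannot create an overlap. The gap was thin in Fabp4, at 17.5 and 29.96 CPM against 32.1 to 280 CPM. The part of fat cell transcripts in the other differences was not tested.

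Lymphoid transcripts set the distal-like mice apart from each other. Of 14 lymphocyte and plasma cell markers 3 were higher (21.4%) and 2 lower (14.3%), with a median of -0.24. With TMM library sizes, without M8_2 or without M10_2, 5 were lower. The 3 higher ones are markers of B cells and, with Cd22, a further B cell receptor, they were, among higher genes with a distal-like mean of at least 5 CPM, those in which the distal-like mice differed most after Hoxd13. Cr2 stood at 0.859 and 13.6 CPM against 0.0606 to 0.312 CPM, Ms4a1 at 1.28 and 12.2 CPM against 0.263 to 0.988 CPM and Cd22 at 1.33 and 10.1 CPM against 0.392 to 1.17 CPM. Igha, the plasma cell product, stood at 245 and 122 CPM against 244 to 1355 CPM, so follicular and plasma cell genes did not follow each other.

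The remaining marker lists held single genes that moved without their list. Of 12 myeloid and mast cell markers only Cma1, mast cell chymase, was higher, at 1.56 and 3.66 CPM against 0.0707 to 0.562 CPM. That is 8.33% of the list, beside 5.63% of all compared genes. Of 11 compared skeletal muscle markers 3 were higher (27.3%) and 1 lower (9.09%). Eno3, the muscle enolase, stood at 258 and 279 CPM against 16.7 to 24.9 CPM, whereas Ckm, muscle creatine kinase, was lower at 10.18 and 11.1 CPM against 19.8 to 33.9 CPM and Myh4 had no count in either distal-like mouse.

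In the pancreatic acinar list Spink1, a trypsin inhibitor, Sycn and Cela1 were higher (42.9% of its compared genes). They stood at 462 and 394 CPM against 5.70 to 16.8 CPM, at 396 and 425 CPM against 18.8 to 21.4 CPM and at 277 and 295 CPM against 26.1 to 30.6 CPM. The defining acinar transcripts were at or near 0 in the distal-like mice, Prss2 at 0.0477 and 0.0242 CPM and Cpa1 at 0.0212 and 0.0242 CPM. The summed list stood at 1124 and 1142 CPM against 62.0 to 92.2 CPM, almost all of it from these 3 genes. Of 10 immediate early and stress genes, Fosb and Atf3 were lower, with differences of -1.07 and -1.60, and the median was -0.28.

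The distal-like mice were also set against each other gene by gene. Of 627 higher genes with a mean of at least 5 CPM in the distal-like mice, 608 (97.0%) lay within 2-fold of each other in M10_2 and M13_1. Of 533 lower genes with a mean of at least 5 CPM in the proximal-like mice, 473 (88.7%) did so. Of all 11603 compared genes with such a mean in the proximal-like mice, 11460 (98.8%) did so, a larger share than in either called set. The lower genes passed this level through the proximal-like mice and stood lower in the distal-like mice, so these shares are not of genes at like levels. The higher genes passed it through the distal-like mice, where they are high. Both calls also required each distal-like mouse to lie beyond every proximal-like one, so part of the agreement in the called sets comes from the selection. Among the 206 of the lower genes that differed by at least 2 on the log2 scale, M13_1 lay above M10_2 in 148 (71.8%). Over the 11603 compared genes above it did so in 5962 (51.4%). The level left in the 206 lower genes was a median 9.98% of the proximal-like mean in M10_2 (quartiles 3.55% and 18.3%). In M13_1 it was 12% (quartiles 6.36% and 18.5%). Among the 202 genes higher by at least 2, M13_1 lay above M10_2 in 113 (55.9%), beside the same 51.4%.

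**Figure D5:**
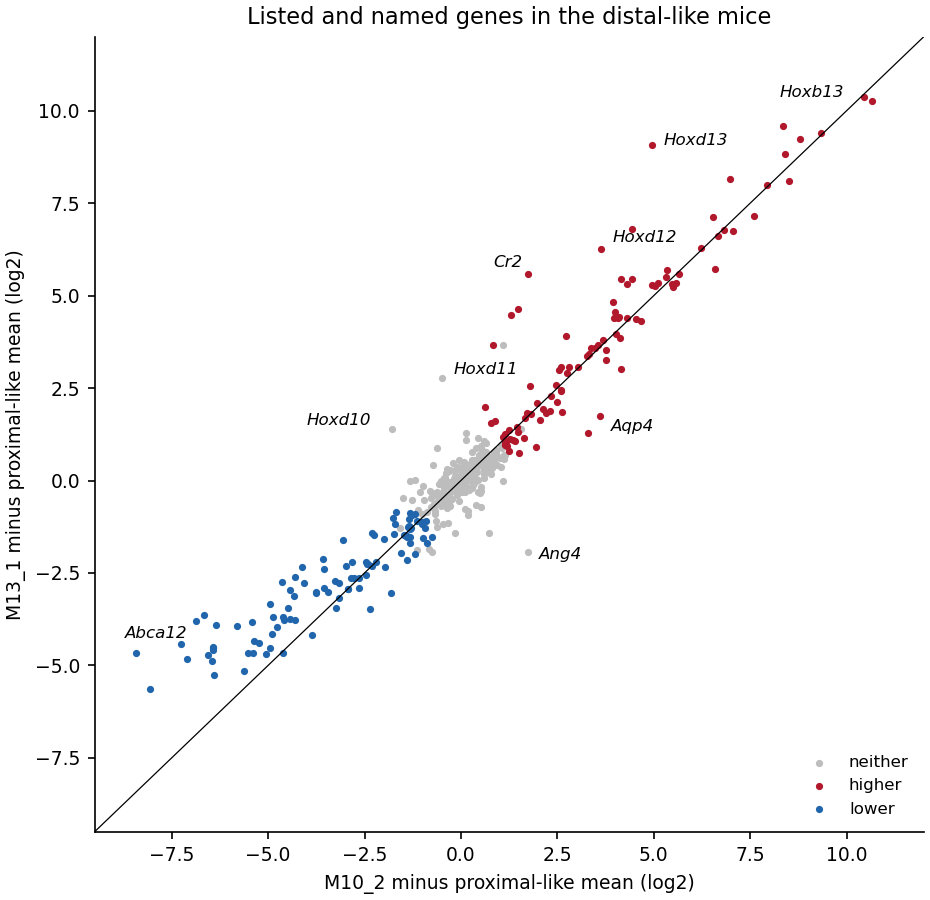
Log2 level of each listed or named gene in M10_2 (horizontal) and M13_1 (vertical), each minus the mean of the 4 proximal-like mice, with the line of equality. Most genes follow the line, most of the strongly lower genes lie above it, and Hoxd10 to Hoxd13 and the B cell gene Cr2 stand off towards M13_1 while Aqp4 and Ang4 stand off towards M10_2.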

How the data were processed

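RNA from the colon of 6 APC Min/+ and 6 WT mice was sequenced in paired ends. According to the methods and the submitters' processing notes, the authors aligned reads to GRCm38.p2 with STAR 2.3.0 and counted them on Ensembl genes with featureCounts. The deposited tables hold raw counts of 38924 genes, 1 table per mouse. Strand and multimapping settings were not given in the sources used here.

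Counts were divided by the total of the mouse to give CPM. Hoxb13 above or below 10 CPM divided the APC Min/+ mice. Genes reaching 10 counts in 2 or more of these 6 mice were compared on log2(CPM + 0.1), and standard errors of differences come from the spread within groups. Symbols and positions were taken from GENCODE M21 for 37607 genes. TMM factors (edgeR 4.0.16) and size factors (DESeq2 1.42.0) served as alternative scalings only. No test was run, since the mice were chosen on this contrast. The comparison was tested on simulated counts with known changes. No 2 libraries were identical.

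The members, the 24 gene lists and the rule for naming genes were chosen with earlier results of these data known. Named were the 8 regional markers, members of the lists, the 12 genes with the widest gap between groups on each side at a mean of at least 5 CPM, and the 5 higher genes in which the distal-like mice differed most. S100a8, S100a9, Ang4, Myh4, Krt6a, Ivl and Sprr3 are list members named after their values were seen. Of 434 listed symbols, 2 were not found. Labels name the mice but give no shipment, cage or sequencing batch for them. Some genes of these lists are not reported here.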

Additional observations from a re-analysis of the deposited data

Results flagged for a closer look

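Of 406 combinations of a named gene with the 4 proximal-like or the 6 WT mice, 29 had 1 mouse far from the others of its group, where chance marks about 1 in 20. On the log2 scale the gap to the nearest mouse exceeded the critical share of the range. Values are CPM, with the range of the other mice of the same group after each.

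The proximal-like mouse M8_2 stood high in Defb45 at 0.0606 (0.0206 to 0.0245), Fxyd4 at 0.293 (0 in every other), Hoxa6 at 1.81 (1.05 to 1.13) and St8sia5 at 0.0505 (0 in every other). The proximal-like mouse M8_2 stood low in Nts at 26.6 (45.4 to 46.6) and Reg3a at 0.566 (1.39 to 1.63). The proximal-like mouse M18_2b stood high in Cpa1 at 1.65 (0 in every other), Defa24 at 12.1 (0.135 to 0.318), Gata5 at 3.08 (0.957 to 0.99), Hoxb9 at 98 (74.8 to 78.2) and Prss2 at 2.29 (0 to 0.0101). The proximal-like mouse M18_2b stood low in Eno3 at 16.7 (23.4 to 24.9). The proximal-like mouse M2_A stood high in Cma1 at 0.562 (0.0707 to 0.103). The proximal-like mouse M2_A stood low in Fcgbp at 328 (1857 to 2296). The WT mouse M17_1 stood low in Acta1 at 1.07 (3.09 to 5.4), Aqp8 at 4.74 (118 to 500), Gsdmc2 at 249 (734 to 1227), Hnf4a at 323 (652 to 872), Reg4 at 56.6 (735 to 1308), Slc26a1 at 0.273 (9.81 to 25.9) and Slc26a3 at 432 (980 to 1406). The WT mouse M18_b stood high in Cyp2c66 at 36.4 (23.6 to 26.6). The WT mouse M18_b stood low in Tph1 at 21.4 (39 to 53.8). The WT mouse M19_1 stood high in Cpa1 at 0.646 (0 in every other) and Prss2 at 0.939 (0 to 0.0408). The WT mouse M16_1 stood high in Tff3 at 482 (374 to 401). The WT mouse M16_1 stood low in Muc6 at 0.163 (0.4 to 0.519). The WT mouse M17_2 stood low in Adipoq at 4.77 (23.5 to 49.8). The WT mouse M18_2a stood high in Trp63 at 0.324 (0.0727 to 0.133).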

How the results depend on the processing

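The division of the mice was the same with Hoxb13 limits of 1 and 100 CPM. The counts of 1149 higher and 1007 lower genes kept within 1.5-fold under both other scalings, both other count filters, each left-out mouse (1144 to 1454 higher and 999 to 1144 lower) and the comparison with 4 proximal-like and 6 WT mice together (1135 and 849). They fell to 706 and 587 with a pseudocount of 1 CPM and to 336 and 327 with a difference of at least 2, both by construction. With that pseudocount the list medians moved to -0.12 for Hox genes, 0.87 for their neighbours, 0.15 for squamous markers, -0.996 for small intestine markers and 0.19 for skeletal muscle markers. With TMM and DESeq2 scaling they moved to -1.23 and -1.23 for xenobiotic metabolism and -0.19 and -0.19 for gut epithelium. With each mouse left out in turn, the Hox median ranged from -0.78 (without M13_1) to -0.346 and that of acinar markers from -0.47 to 0.45, the highest without M18_2b. The medians of epithelial, neuron and glia, myeloid and acinar markers, all close to 0, changed sign under some settings. Of 201 named genes, 78 moved by at least their pooled standard deviation within groups with a pseudocount of 1 CPM, and 13 with TMM scaling. Without M10_2 it was 53, and without M13_1 also 53. No called gene changed sign. For a left-out mouse or the pseudocount this was fixed in advance, because a gene is called only where the groups do not overlap. No paired analysis was possible because no result comes from a test and replicate numbers here only name mice. With 2 distal-like mice, the spread within that group rests on a single difference.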
